A study of Mus musculus with 4 samples.

Results

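Complex I of the respiratory chain (NADH dehydrogenase) is encoded in the nucleus mostly by genes whose symbols start with Nduf, and these genes were followed here in stem-cell-enriched bone marrow of mice labelled GABPα-deficient and of controls. Every probe set of the array whose annotation gave exactly 1 gene symbol starting with Nduf was taken. This gave 48 probe sets for 43 genes, 36 of them named as subunits and 7 as assembly factors (Ndufaf), out of 19938 genes and 35556 probe sets in all. The RNA came from Flt3(-) LSK cells, bone marrow cells that lack lineage markers and surface Flt3 and carry Sca-1 and Kit, a fraction rich in hematopoietic stem cells. Each of the 4 RNA samples, 2 per group, was hybridised to its own Affymetrix Mouse Gene 1.0 ST array. The control group was Mx1Cre-GABPa(FL/+), with 1 floxed and 1 wild-type allele of Gabpa. The other group was Mx1Cre-GABPa(FL/-), with 1 floxed and 1 null allele. Both groups carried the Cre transgene and received pIpC, an interferon-inducing RNA analog that switches on the Mx1 promoter, and cells were taken 4 days after its last dose. The controls therefore kept 1 intact allele and were not wild-type mice, and Mx1-Cre acts in many interferon-responsive cells besides blood stem cells. Mouse age was 6 to 8 weeks in both groups, after 4 generations of backcrossing to C57/BL6. The labelled cDNA was made by amplification from 800 pg to 50 ng of RNA, with the amount for each sample not stated in the labels. Whether 1 animal or a pool gave each sample is not stated in the labels. The p-values therefore rest on the spread between these arrays alone, which may be technical.

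Complex I takes electrons from NADH, passes them through a flavin and a chain of iron-sulfur clusters to ubiquinone, and pumps protons across the inner mitochondrial membrane. Its matrix arm carries the core redox subunits, and its membrane arm carries the proton pumps, whose core is encoded in mitochondrial DNA and was not analysed here. Accessory subunits wrap both arms, and assembly factors help to build the complex but are not part of the finished enzyme. GABP, the ETS-family factor whose DNA-binding subunit is encoded by Gabpa, was also described as a nuclear respiratory factor because ETS sites lie in promoters of several respiratory chain genes. Long-term blood stem cells are known to rely little on respiration compared with dividing progenitors and erythroid cells.

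Values are log2 expression, and a difference is the mean of the 2 arrays labelled deficient minus the mean of the 2 control arrays. For Gabpa the values were 8.43 and 7.28 in the controls, then 6.43 and 7.85 in the samples labelled deficient (difference −0.71, SE 0.68, limma adjusted p = 0.605). The library labelled deficient replicate 2 thus lay above control replicate 2 for Gabpa, and no source used here says whether this probe set covers the deleted exons. The GABP partner genes Gabpb1 and Gabpb2 differed by −0.67 (SE 0.39) and −0.28 (SE 0.31). The groups are called by their labels, and results are given with and without this array. Marker RNA of the sorted cells was not alike in the groups. Kit, which the sort requires, differed by −2.11 (limma adjusted p = 0.288). Flt3, whose protein the sort excludes, read 8.43 and 9.26 in the controls and differed by −3.03 (limma adjusted p = 0.222). The summed linear signal of 9 measured stem and progenitor markers ran from 6242 to 6820 in the controls and 1340 to 1627 in the samples labelled deficient, and at an unadjusted p under 0.05 (limma) 7 of the 9 were lower and 0 higher. For 10 erythroid markers it ran from 1086 to 1168 in the controls and 4034 to 5656 in the samples labelled deficient, with 7 higher and 0 lower, and for 12 macrophage markers from 1066 to 1204 in the controls and 2002 to 3950 in the samples labelled deficient, with 4 higher and 0 lower. Over all genes 6.99% were higher and 6.36% lower at that p. For 10 stromal and endothelial markers it ran from 794 to 816 in the controls and 2042 to 2504 in the samples labelled deficient, with 5 higher and 0 lower. Values on this scale have no 0. By the mean over all 4 arrays, 8 of the 10 erythroid, 9 of the 12 macrophage and 7 of the 10 stromal markers lay in the brighter 50% of probe sets. That mean includes the arrays where they read higher, so these counts do not give their level in the controls. On control replicates 1 and 2 the median erythroid marker read 6.37 and 6.67, the macrophage 6.38 and 6.12 and the stromal 6.08 and 6.29. The medians of all probe sets on these arrays were 5.87 and 5.91. The part of these cells in the complex I values was not tested. In bulk RNA fewer cells of a type and less RNA per cell cannot be told apart. The 2 control arrays correlated at 0.960 across probe sets and the 2 arrays labelled deficient at 0.944.

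Complex I subunits read slightly higher on the arrays labelled deficient. Of the 36 subunit genes, 34 had a difference above 0, or 94.4%, against 67.6% of all 19938 genes. The median difference of the subunits was 0.26, against 0.16 for all genes and 0.15 for all probe sets, and single subunits ran from −0.10 for Ndufs8 to 0.72 for Ndufs5. Differences varied with gene span, whose median was 7840 bases for the subunits and 17738 for all genes. Of the shortest 25% of genes 83.1% were above 0, with a median of 0.23. For the next 25% these values were 71.6% and 0.19, and for the longest 25% they were 56.4% and 0.078. The part of span in the subunit values was not tested. In limma's fit 0 of the 36 subunits passed an adjusted p under 0.05, where 0% of all genes passed in either direction, and the adjusted p of the subunits ran from 0.416 to 0.997. At an unadjusted p under 0.05, 1 subunit was higher and 0 were lower, against 6.99% and 6.36% of all genes. Scaling changed that background, since 2360 probe sets were higher and 1865 lower as deposited, 1191 and 2349 after cyclic loess and 1537 and 2185 after subtraction of column medians. The groups did not overlap, with the arrays labelled deficient higher, for 15 subunits (41.7%). That share is near the 42.9% of all genes and above the 23.9% of the brightest 25% of genes, where 35 of the 36 subunits lay, so how it reads depends on the genes set beside it. The groups were separated in the lower direction for 0 subunits, against 15.2% of all genes.

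The 2 arrays labelled deficient were not alike. Deficient replicate 1 was the highest of the 4 arrays for 31 of the 36 subunits (86.1%), against 33.3% of all genes, and above both controls for 33, against 56.5%. Deficient replicate 2 lay above both controls for 16 subunits (44.4%), against 54.8% of all genes. The median subunit stood 0.42 above the mean of the controls on deficient replicate 1 and 0.086 above it on deficient replicate 2, where the median of all genes stood at 0.15 and 0.16. Without deficient replicate 1, 22 of 36 subunits (61.1%) were above 0, against 64.8% of all genes, and their median of 0.086 was below the all-gene median of 0.16. Without deficient replicate 2 the count was 35 of 36 and the median 0.42, against 0.15. Macrophage markers followed the same array, with deficient replicate 1 highest for 10 of 12, whereas erythroid markers did so for 4 of 10. Their part in the complex I values was not tested. The difference of a gene also varied with its level in this table. Among the brightest 25% of genes the median difference was −0.030, 47.8% of genes were above 0, 8.04% were higher at an unadjusted p under 0.05 and 23.9% were separated upward. Deficient replicate 1 was highest for 41.6% of them, and deficient replicate 2 lay above both controls for 30.3%. Their medians above the mean of the controls were 0.11 on deficient replicate 1 and −0.12 on deficient replicate 2. The subunit medians were thus higher on both arrays beside these genes, and on replicate 1 alone beside all genes. The subunits were brighter still, with medians of 10.37 and 10.40 on the controls against 8.62 and 8.55. No set matched to them in level was compared. Cyclic loess normalization between the arrays moved the median of all genes to −0.00073 and left that of the subunits at 0.23, with 32 of 36 above 0. Subtraction of column medians gave 0.083 and 0.18, with 30 of 36 above 0.

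**Figure D1:**
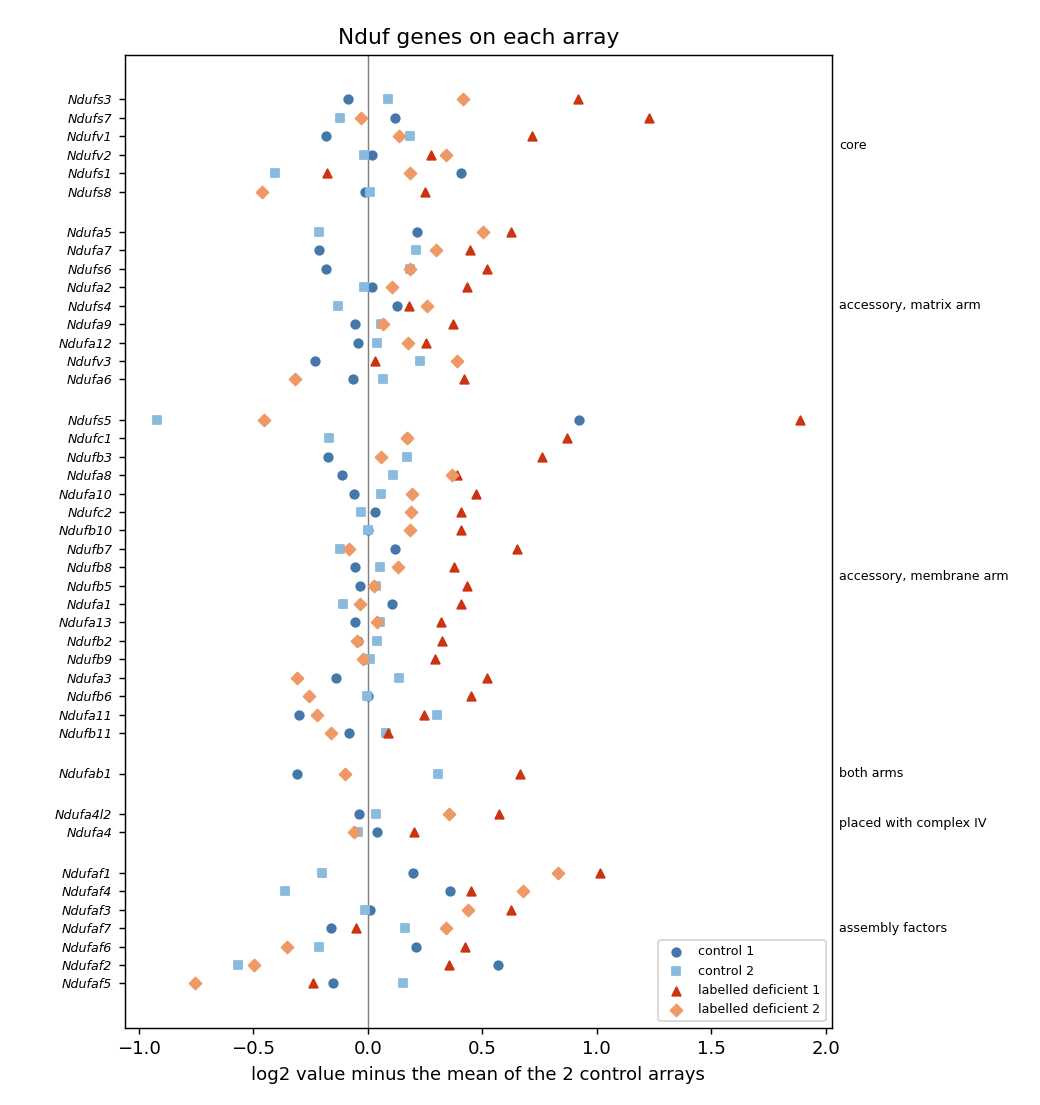
Each row is 1 Nduf gene, and the horizontal axis gives the log2 value on each of the 4 arrays minus the mean of the 2 control arrays. Triangles for deficient replicate 1 are the rightmost point for 31 of the 36 subunits, and diamonds for deficient replicate 2 lie above both controls for 16.

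The promoters of the genes were searched for letters of the ETS site that GABP is known to bind, with RefSeq sequences of build GRCm38.p6 that run from 250 bases before each gene's start to 50 after it. Of the 43 genes, 38 had a promoter in that table. The letters CCGGAAG, on either strand, were found for 5 of the 38 genes (13.2%), namely Ndufaf1, Ndufs3, Ndufs8, Ndufb6 and Ndufb7, against 13.6% of the 15563 genes with a promoter and a probe set and 8.86% of all 32851 promoters in the table. The shorter GGAAGT, which can overlap CCGGAAG, was found for 11 (28.9%), against 27.9% of those genes and 23.8% of all promoters. The share of complex I genes was thus near the background for both. The 5 genes with CCGGAAG had a median difference of 0.28 and the 33 without it 0.25. Subunits alone went the other way, with 0.19 for the 4 with CCGGAAG and 0.27 for the 28 without. The 1 assembly factor with it, Ndufaf1, differed by 0.92, and the median of the 5 without was 0.15. Among all genes the medians were 0.035 with CCGGAAG and 0.17 without. A match is a description of letters and not a binding site. The following 4 promoters are shown because they belong to the assembly factor with the highest difference, the core subunits with the highest and the lowest, and the assembly factor with the lowest, and capitals mark CCGGAAG and GGAAGT on either strand, written 5′ to 3′ along the gene.
Ndufaf1 (chr2:119662785-119663084, minus strand): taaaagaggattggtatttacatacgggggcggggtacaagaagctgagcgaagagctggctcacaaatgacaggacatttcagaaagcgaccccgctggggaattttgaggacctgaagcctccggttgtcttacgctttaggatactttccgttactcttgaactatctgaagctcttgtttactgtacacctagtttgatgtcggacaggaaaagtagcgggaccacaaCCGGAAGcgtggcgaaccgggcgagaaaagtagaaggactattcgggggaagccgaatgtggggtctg
Ndufs3 (chr2:90904672-90904971, minus strand): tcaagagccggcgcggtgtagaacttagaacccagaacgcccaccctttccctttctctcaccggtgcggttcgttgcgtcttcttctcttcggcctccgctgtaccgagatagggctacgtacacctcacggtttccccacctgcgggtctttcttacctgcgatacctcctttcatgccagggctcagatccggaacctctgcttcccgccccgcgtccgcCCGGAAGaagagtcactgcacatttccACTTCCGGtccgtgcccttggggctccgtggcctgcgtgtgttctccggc
Ndufs8 (chr19:3912725-3913024, minus strand): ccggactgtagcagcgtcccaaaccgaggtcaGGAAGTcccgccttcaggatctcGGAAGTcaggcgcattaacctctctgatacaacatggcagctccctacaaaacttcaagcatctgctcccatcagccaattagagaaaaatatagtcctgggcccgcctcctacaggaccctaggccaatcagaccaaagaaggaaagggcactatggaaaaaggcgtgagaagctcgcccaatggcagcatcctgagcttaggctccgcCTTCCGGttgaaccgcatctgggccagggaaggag
Ndufaf5 (chr2:140170396-140170695, plus strand): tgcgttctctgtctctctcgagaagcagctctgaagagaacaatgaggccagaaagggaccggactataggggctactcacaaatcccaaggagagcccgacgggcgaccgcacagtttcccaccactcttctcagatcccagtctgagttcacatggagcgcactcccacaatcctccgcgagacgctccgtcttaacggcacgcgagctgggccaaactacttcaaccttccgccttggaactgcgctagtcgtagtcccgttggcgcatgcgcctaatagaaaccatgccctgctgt
In Ndufaf1 the match began 18 bases before the start site. Ndufs3 held a match on each strand, the first 27 bases before the start. In Ndufs8 the single CCGGAAG match lay after the start, on the opposite strand, and GGAAGT occurred 2 times upstream. The Ndufaf5 window held neither string.

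Core subunits of the matrix arm were represented by 6 genes. Their median difference was 0.37, with 5 of 6 above 0, and it was 0.37 without control replicate 1, 0.39 without control replicate 2, 0.16 without deficient replicate 1 and 0.50 without deficient replicate 2. Ndufs3, a core subunit of the quinone-binding part that joins early in assembly, read 9.50 and 9.68 in the controls, then 10.51 and 10.004 in the samples labelled deficient (difference 0.67, SE 0.24, limma adjusted p = 0.421). Both arrays labelled deficient lay above both controls, with replicate 1 the higher. A further probe set annotated as Ndufs3 gave 0.59. Ndufs7, which holds the last iron-sulfur cluster before ubiquinone, read 8.97 and 8.72 in the controls, then 10.07 and 8.81 in the samples labelled deficient (difference 0.60, SE 0.48, limma adjusted p = 0.557). Here replicate 1 stood alone, and replicate 2 fell between the controls.

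Ndufv1, the subunit that binds NADH and the flavin, read 9.66 and 10.02 in the controls, then 10.56 and 9.98 in the samples labelled deficient (difference 0.43, SE 0.28, limma adjusted p = 0.505), so that replicate 2 again lay within the control range. Ndufv2, its iron-sulfur partner, read 10.44 and 10.41 in the controls, then 10.70 and 10.77 in the samples labelled deficient (difference 0.31, SE 0.14, limma adjusted p = 0.436). Its groups did not overlap, and the arrays of each group lay close together. Ndufs1, the large iron-sulfur subunit, read 8.98 and 8.17 in the controls, then 8.39 and 8.76 in the samples labelled deficient (difference 0.0036, SE 0.35, limma adjusted p = 0.997). The arrays labelled deficient lay between the controls. Ndufs8, another iron-sulfur subunit, read 10.30 and 10.32 in the controls, then 10.56 and 9.85 in the samples labelled deficient (difference −0.10, SE 0.29, limma adjusted p = 0.86), with replicate 1 above and replicate 2 below both controls. Of these core genes Ndufs3 and Ndufv2 alone were separated between the groups.

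**Figure D2:**
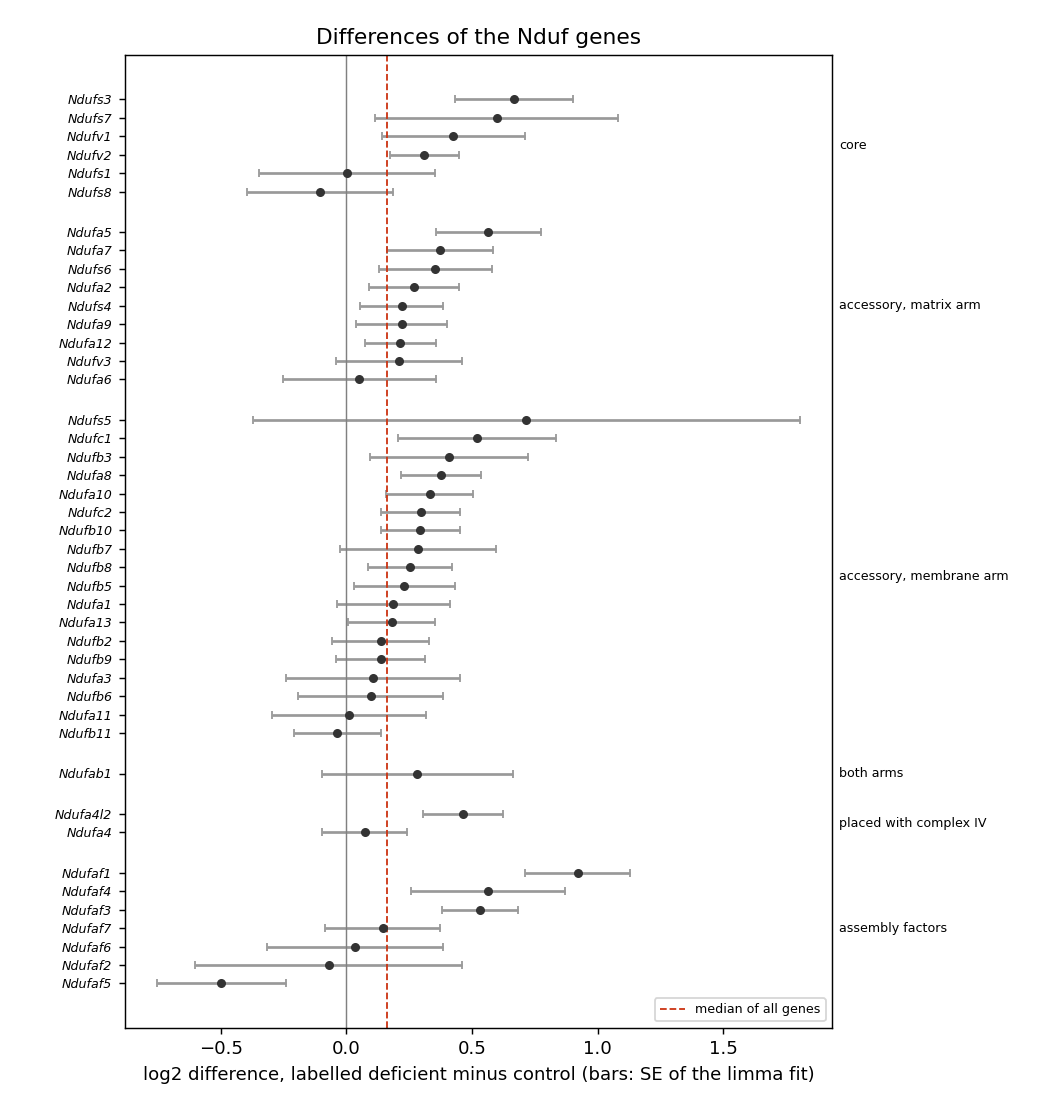
Points give the log2 difference of each Nduf gene, labelled deficient minus control (2 arrays per group), bars give the SE of limma's moderated fit, and the dashed line marks the median of all genes at 0.16. Of the 43 points, 39 lie above 0, Ndufaf1 is highest at 0.92, Ndufaf5 lowest at −0.50, and the bar of Ndufs5 spans an SE of 1.09.

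The 9 accessory subunits of the matrix arm were all above 0, with a median of 0.22. The groups were separated upward for 7 of 9, against 42.9% of all genes and 23.9% of the brightest 25%. None passed limma's test, with 0 of 9 at an adjusted p under 0.05 and also 0 of 9 at an unadjusted p under 0.05. The median was 0.17 without control replicate 1, 0.28 without control replicate 2, 0.19 without deficient replicate 1 and 0.42 without deficient replicate 2, with 8 of 9 above 0 without deficient replicate 1. Ndufa5, an early-assembling subunit of the quinone-binding part, read 10.82 and 10.39 in the controls, then 11.23 and 11.11 in the samples labelled deficient (difference 0.57, SE 0.21, limma adjusted p = 0.421). Ndufa7, of the matrix arm, read 8.89 and 9.31 in the controls, then 9.55 and 9.40 in the samples labelled deficient (difference 0.37, SE 0.21, limma adjusted p = 0.47). Ndufs6, a zinc-binding subunit, read 11.48 and 11.84 in the controls, then 12.18 and 11.84 in the samples labelled deficient (difference 0.35, SE 0.23, limma adjusted p = 0.496). For Ndufs6 the lower array labelled deficient and the higher control were almost level. Ndufa12, which takes the place that the assembly factor Ndufaf2 holds before it, read 10.55 and 10.63 in the controls, then 10.85 and 10.77 in the samples labelled deficient (difference 0.22, SE 0.14, limma adjusted p = 0.502). The other 5 ran from 0.052 for Ndufa6 to 0.27 for Ndufa2, and Ndufs4, whose loss in mice models Leigh syndrome, stood at 0.22 (SE 0.17). Ndufa6 and Ndufv3 had overlapping groups.

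Of the 20 accessory genes listed for the membrane arm, 18 had a probe set with 1 symbol, and 17 of these were above 0. Their median was 0.24, and the groups were separated upward for 5 of 18 (27.8%), against 42.9% of all genes and 23.9% of the brightest 25%. Deficient replicate 1 was above deficient replicate 2 for 18 of 18, against 47.4% of all genes, and was the highest array for 17 of 18. Probe sets naming both Ndufb4 and Ndufb4b, left out by the rule, read 11.49 and 11.48, and 11.69 and 11.72, on deficient replicates 1 and 2. Their differences were 0.35 and 0.36, with both arrays above both controls. The probe set naming Ndufs5 and Ndufs5-ps, also left out, read 10.43 and 9.49 on these arrays. The median was 0.22 without control replicate 1, 0.25 without control replicate 2, 0.0041 without deficient replicate 1 and 0.41 without deficient replicate 2, and without deficient replicate 1 only 9 of 18 were above 0. At an adjusted or an unadjusted p under 0.05 in limma's fit the count was 0.

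Ndufa8, an intermembrane-space subunit, read 9.85 and 10.07 in the controls, then 10.35 and 10.33 in the samples labelled deficient (difference 0.38, SE 0.16, limma adjusted p = 0.429). Ndufa10, related to nucleoside kinases, read 10.98 and 11.10 in the controls, then 11.51 and 11.23 in the samples labelled deficient (difference 0.33, SE 0.17, limma adjusted p = 0.457). In both genes the lower array labelled deficient was clear of the higher control. For Ndufc2, a small membrane subunit, the values were 12.11 and 12.05 in the controls, then 12.49 and 12.27 in the samples labelled deficient (difference 0.30, SE 0.16, limma adjusted p = 0.46). Ndufb10, another membrane-arm subunit, read 10.95 and 10.95 in the controls, then 11.36 and 11.13 in the samples labelled deficient (difference 0.29, SE 0.16, limma adjusted p = 0.46). In these 4 genes and in Ndufb8 both arrays labelled deficient lay above both controls. Ndufs5 had the largest difference of all subunits and also the widest spread within each group. It read 9.22 and 7.37 in the controls, then 10.18 and 7.84 in the samples labelled deficient (difference 0.72, SE 1.09, limma adjusted p = 0.737), so replicate 2 lay between the controls, and without deficient replicate 1 its difference was −0.45. Ndufb11, an X-linked subunit, read 11.49 and 11.65 in the controls, then 11.66 and 11.41 in the samples labelled deficient (difference −0.036, SE 0.17, limma adjusted p = 0.922). It was the only gene of this arm below 0. Leaving out control replicate 2 or deficient replicate 2 turned the sign for this probe set, to 0.045 and 0.089. A further, dimmer probe set annotated as Ndufb11 gave −0.19. The other 12 measured genes of the arm ran from 0.012 for Ndufa11 to 0.52 for Ndufc1. A further probe set annotated as Ndufa11 gave −0.13, of the opposite sign, and both scalings turned the sign of the one used.

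Ndufab1, the mitochondrial acyl carrier protein, sits in both arms and also serves fatty acid and lipoate synthesis. Its values were 9.59 and 10.20 in the controls, then 10.56 and 9.80 in the samples labelled deficient (difference 0.28, SE 0.38, limma adjusted p = 0.703). The 2 controls differed by more than the group means, and control replicate 2 lay above deficient replicate 2. Ndufa4 and Ndufa4l2 carry the Nduf name, but Ndufa4 was later placed with complex IV. Ndufa4 read 12.02 and 11.93 in the controls, then 12.18 and 11.92 in the samples labelled deficient (difference 0.073, SE 0.17, limma adjusted p = 0.831), with overlapping groups. Ndufa4l2, a relative of Ndufa4 that hypoxia is known to induce, was the 1 subunit gene past an unadjusted p under 0.05. It read 5.93 and 5.999 in the controls, then 6.54 and 6.32 in the samples labelled deficient (difference 0.46, SE 0.16, limma adjusted p = 0.416). It was also the only subunit outside the brightest 25% of genes. Without Ndufa4 and Ndufa4l2, 0 of 34 subunits had an unadjusted p under 0.05 and the median was 0.26. The unadjusted p of Ndufa4l2 in limma's fit was 0.162 without control replicate 1, 0.12 without control replicate 2, 0.157 without deficient replicate 1 and 0.0571 without deficient replicate 2, so each array left out ended it. After cyclic loess its difference was 0.28, and the 1 subunit under 0.05 was Ndufs3. The count of subunits higher at that p was 3 without deficient replicate 2 (Ndufs3, Ndufs7 and Ndufc1), 1 without control replicate 1 (Ndufa5), and 0 without either of the other arrays.

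The 7 Nduf assembly factors did not share a direction. Their median difference was 0.15, close to the 0.16 of all genes, with 5 above 0 and 2 below. All 7 lay in the brightest 25% of genes, where the median was −0.030 and 47.8% were above 0. They spread more widely than the subunits, from −0.50 to 0.92. At an unadjusted p under 0.05, 2 were higher and 0 lower, against 6.99% and 6.36% of all genes, and 0 passed the adjusted threshold (limma). These were Ndufaf1 and Ndufaf3, as they were without deficient replicate 2. Without control replicate 1 the count was also 2, of Ndufaf1 and Ndufaf4, and it was 0 without control replicate 2 or without deficient replicate 1. The groups were separated upward for 3 and downward for 1, against 42.9% and 15.2% of all genes and 23.9% and 25.7% of the brightest 25%. The median was 0.50 without control replicate 1, 0.20 without control replicate 2, 0.34 without deficient replicate 1 and 0.43 without deficient replicate 2.

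Ndufaf1, a chaperone of the membrane arm and a member of the mitochondrial complex I assembly complex, had the highest difference of all 43 genes. It read 9.36 and 8.96 in the controls, then 10.18 and 9.99 in the samples labelled deficient (difference 0.92, SE 0.21, limma adjusted p = 0.369). Both arrays labelled deficient were above both controls, and the difference stayed between 0.72 and 1.12 when any 1 array was left out. Ndufaf3 and Ndufaf4 work as a pair on the quinone-binding part. Ndufaf3 read 7.49 and 7.47 in the controls, then 8.10 and 7.91 in the samples labelled deficient (difference 0.53, SE 0.15, limma adjusted p = 0.406), with little spread inside each group. Ndufaf4 read 8.70 and 7.98 in the controls, then 8.79 and 9.02 in the samples labelled deficient (difference 0.56, SE 0.31, limma adjusted p = 0.463). The lower array labelled deficient was just above the higher control for Ndufaf4, and here replicate 2 was the highest.

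Ndufaf5, which hydroxylates the core subunit Ndufs7, was the only Nduf gene with both arrays labelled deficient below both controls. It read 8.83 and 9.13 in the controls, then 8.74 and 8.23 in the samples labelled deficient (difference −0.50, SE 0.26, limma adjusted p = 0.454). Ndufaf7, a mitochondrial methyltransferase, read 8.10 and 8.42 in the controls, then 8.21 and 8.60 in the samples labelled deficient (difference 0.15, SE 0.23, limma adjusted p = 0.746). Ndufaf6, another early-acting factor, read 7.54 and 7.12 in the controls, then 7.75 and 6.97 in the samples labelled deficient (difference 0.036, SE 0.35, limma adjusted p = 0.963), and the scalings turned its sign. It was −0.025 after cyclic loess and −0.045 after subtraction of column medians. Ndufaf2, the late-acting relative of Ndufa12, read 10.13 and 8.99 in the controls, then 9.92 and 9.06 in the samples labelled deficient (difference −0.070, SE 0.53, limma adjusted p = 0.952). For Ndufaf2 the arrays of each group lay much farther apart than the group means.

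Other proteins that help to build complex I are not named Nduf. Of 11 such genes, 10 were measured, with 5 above and 5 below 0 and a median of −0.025. In limma's fit 0 passed an adjusted and 0 an unadjusted p under 0.05. They too split by array. Deficient replicate 1 exceeded replicate 2 for 9 of 10, and the median was 0.53 without deficient replicate 2 and −0.36 without deficient replicate 1, so its direction rested on which of them was kept. Tmem70, best known for assembly of ATP synthase, read 8.11 and 7.98 in the controls, then 7.72 and 7.72 in the samples labelled deficient (difference −0.33, SE 0.14, limma adjusted p = 0.431). Acad9, the partner of Ndufaf1, read 7.19 and 6.81 in the controls, then 7.53 and 7.22 in the samples labelled deficient (difference 0.38, SE 0.22, limma adjusted p = 0.481), and Foxred1, an oxidoreductase-like factor, differed by 0.53 (SE 0.37).

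The remaining complexes of the chain shared the pattern to different degrees. Median differences were 0.21 over 8 genes for complex II, 0.45 over 15 for complex III, 0.27 over 19 for complex IV and 0.17 over 17 for complex V (ATP synthase), beside 0.26 for the complex I subunits. The lists of the other complexes hold assembly factors as well as subunits, whereas the complex I value is for subunits alone. Over all 43 Nduf genes, assembly factors included, the median was 0.25. None of their 59 genes passed the adjusted threshold (limma). At an unadjusted p under 0.05 the counts higher and lower were 1 and 1 for complex II, 3 and 0 for complex III, 3 and 0 for complex IV and 1 and 0 for complex V, against 6.99% and 6.36% of all genes. Deficient replicate 1 was highest for 5 of 8, 14 of 15, 15 of 19 and 13 of 17 genes, in the same order, against 33.3% of all genes. Most genes of complexes II, III, IV and V thus stood highest on that array, as the complex I subunits did. Without that array the medians were 0.059, 0.072, 0.16 and 0.13, against 0.086 for the complex I subunits. Without deficient replicate 2 they were 0.43, 0.73, 0.36 and 0.23, against 0.42. The difference between complex I and the other complexes was not tested.

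**Figure D3:**
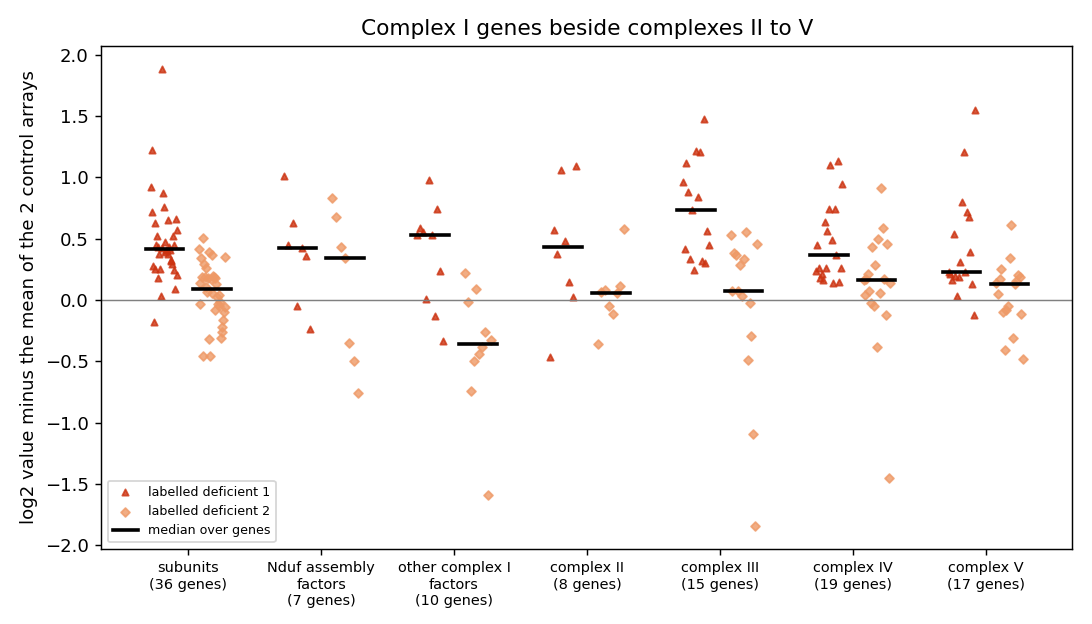
The vertical axis gives the log2 value of each gene on deficient replicate 1 (triangles) and replicate 2 (diamonds) minus the mean of the 2 control arrays, with a black bar at the median over genes. In each set the bar for replicate 1 is above that for replicate 2, at 0.42 against 0.086 for the complex I subunits.

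Some genes with small unadjusted p in these lists may be named beside complex I. Uqcr11, a small subunit of complex III, read 10.79 and 10.88 in the controls, then 11.67 and 11.39 in the samples labelled deficient (difference 0.70, SE 0.17, limma adjusted p = 0.387). Cox7a2, of complex IV, read 11.27 and 11.27 in the controls, then 11.91 and 11.70 in the samples labelled deficient (difference 0.54, SE 0.15, limma adjusted p = 0.407), and the copper chaperone Cox17 differed by 0.67 (SE 0.19). For these 3 genes both arrays labelled deficient lay above both controls. Atp5g1, of the ATP synthase ring, differed by 0.91 (SE 0.30). In complex II, Sdha, the flavin subunit, read 9.70 and 9.70 in the controls, then 9.23 and 9.34 in the samples labelled deficient (difference −0.41, SE 0.14, limma adjusted p = 0.415), while the assembly factor Sdhaf4 differed by 0.84 (SE 0.26).

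**Figure D4:**
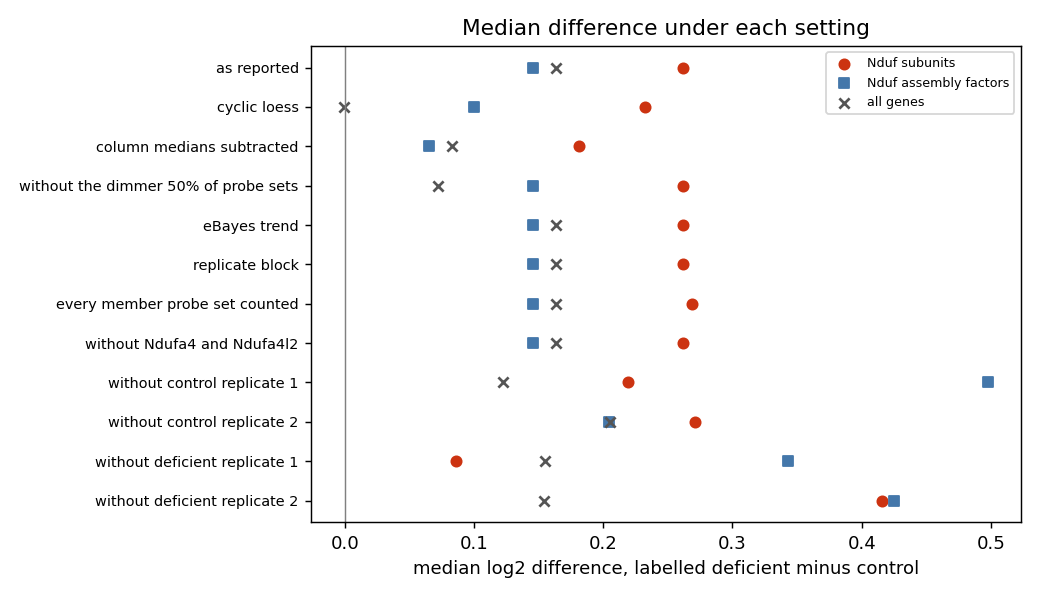
The horizontal axis gives the median log2 difference, labelled deficient minus control, of the Nduf subunits (circles), the Nduf assembly factors (squares) and all genes (crosses) as reported and under each other setting. The subunit median stays above that of all genes except without deficient replicate 1, where it is 0.086 against 0.16.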

How the data were processed

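The table deposited by the authors gives log2 expression per probe set, in a column for each array. The submitters' processing notes name RMA, which corrects background, quantile-normalizes and summarizes probes, and Partek, without versions, and no source used here gives the genome build of the annotation. No further normalization was applied. Of 35556 probe sets, 21789 had 1 gene symbol, and these were named through Entrez numbers in the RefSeq gene table of GRCm38.p6, where 21698 matched. The probe set with the highest mean over the 4 arrays stood for each of 19938 genes. Groups were compared in R 4.3.3 with limma 3.58.1 (lmFit and eBayes, genotype as the only term), with Benjamini-Hochberg adjustment over all probe sets and a threshold of 0.05, and the procedure was tested on simulated data. Group errors are SEs of that fit. An exact permutation test of 2 against 2 arrays cannot go below p = 0.333, so none was used. The labels give no batch. Arrays carry no read depth, so their number limits the precision. Group members, gene lists, alternatives and the naming rule were chosen with earlier results of these data known, and the comparison with the brightest 25% of genes was added after values were seen. By that rule every Nduf gene could be named. Full values went to core subunits, assembly factors, Ndufa4, Ndufa4l2, Ndufab1 and, in each accessory group, the 4 genes with the smallest unadjusted p in each direction, and Ndufs5 was added for its spread. Up to 3 genes of each other list were named by smallest unadjusted p. Nduf genes have pseudogene copies (5 in the RefSeq table), and their probes may also read these. A further 3 probe sets annotated with several symbols including an Nduf gene were left out. Granulocyte, B and plasma cell, and T and NK cell marker lists had median differences of 0.16, 1.003 and 0.25.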

Additional observations from a re-analysis of the deposited data

How the results depend on the processing

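The calls over all probe sets stayed at 0 under every setting tried (limma, adjusted p under 0.05). The subunit median kept its sign throughout, from 0.086 without deficient replicate 1 to 0.42 without deficient replicate 2. That of the assembly factors, 0.15 as reported, was 0.065 after subtraction of column medians, 0.10 after cyclic loess, 0.50 without control replicate 1, 0.20 without control replicate 2, 0.34 without deficient replicate 1 and 0.43 without deficient replicate 2. The count of subunits higher at an unadjusted p under 0.05 was 0 after subtraction of column medians, without the dimmer 50% of probe sets, with eBayes trend, with a replicate block and without Ndufa4 and Ndufa4l2, and ran from 0 to 3 with 1 array left out. That of assembly factors was 1 after subtraction of column medians, with eBayes trend and with a replicate block, and ran from 0 to 2 with 1 array left out. Counts lower stayed at 0 for both. The deviations of same-numbered arrays correlated at −0.088 across probe sets. With only 2 pairs this value cannot show whether such arrays share more than their number. With the replicate block limma gave 1341 probe sets higher and 1666 lower at an unadjusted p under 0.05, against 2360 and 1865 without it. Of 43 genes, 24 kept their sign with each array left out in turn. The log2 difference of the other 19 ran over these ranges: Ndufa1 −0.034 to 0.41, Ndufa11 −0.29 to 0.31, Ndufa3 −0.31 to 0.52, Ndufa4 −0.059 to 0.20, Ndufa6 −0.32 to 0.42, Ndufab1 −0.10 to 0.66, Ndufaf2 −0.64 to 0.50, Ndufaf6 −0.35 to 0.43, Ndufaf7 −0.051 to 0.34, Ndufb11 −0.16 to 0.089, Ndufb2 −0.047 to 0.32, Ndufb6 −0.26 to 0.45, Ndufb7 −0.082 to 0.65, Ndufb9 −0.020 to 0.29, Ndufs1 −0.40 to 0.41, Ndufs5 −0.45 to 1.89, Ndufs7 −0.031 to 1.23, Ndufs8 −0.46 to 0.25 and Ndufv3 −0.020 to 0.44. Signs turned after cyclic loess for Ndufs1 −0.045, Ndufa11 −0.024 and Ndufaf6 −0.025, and after subtraction of column medians for Ndufs1 −0.077, Ndufa6 −0.029, Ndufa11 −0.068, Ndufaf6 −0.045 and Ndufa4 −0.0079. The cause of these changes was not tested. With 2 arrays a group, the SE of a single subunit's difference had a median of 0.21, which limits what can be seen for 1 gene.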
